A study of Mus musculus with 12 samples.

Results

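The CD40 agonist and IL-1R1 blockade were given alone and together, and the interaction asked, gene by gene, whether the combination differed from the sum of its parts. It was computed as (Combo − agoCD40) − (anti-IL-1R1 − isotype) on the log2 scale, from all 12 of the 12 libraries, 3 per group. A positive value says that Combo livers held more of an RNA than the effects of both antibodies alone add up to, and a negative value that they held less. All mice were 12 weeks old and bore pancreatic ductal adenocarcinoma, and the tissue was flash-frozen liver. The isotype group is labelled both as isotype control and as no treatment, so whether those mice received an antibody is not settled here. The agoCD40 group received an agonistic anti-CD40 antibody, the anti-IL-1R1 group (antiIL1R1 in the plots) an antibody against IL-1R1, and the Combo group both. The strain, the tumour model, the antibody doses and schedule, the feeding state and the hour of collection are not given in the sources used here. Since no label ties the libraries to separate animals, a p-value here reflects library-to-library spread only, which may be technical.

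CD40 is a receptor of the TNF receptor family on B cells, dendritic cells and macrophages, and its activation starts NF-κB signalling and the release of cytokines. IL-1α and IL-1β signal through IL-1R1, also into NF-κB, and in the liver they drive part of the acute-phase response. Hepatocytes answer such inflammatory signals together with glucocorticoid, feeding and clock signals, which share many target genes in this organ.

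Total estimated counts ranged from 18681390 to 27118712 per library, and 15465 of 56748 listed genes were tested. The hepatocyte genes Alb (23875 to 36836 TPM), Apoa1 (7167 to 13754) and Ttr (5259 to 9497) were high in every library, while Krt19 of duct and carcinoma cells (0.209 to 3.15 TPM), Ptprc of leukocytes (1.24 to 6.62) and Prss2 of the exocrine pancreas (0 to 0.357) were low. Mitochondrial RNA took 9.31% ± 4.22 of the counts in isotype, 10.7% ± 2.08 in agoCD40, 11.2% ± 3.47 in anti-IL-1R1 and 8.88% ± 1.14 in Combo (SD, n = 3), an interaction of -3.76 percentage points. Isotype 2 (14.1%) and anti-IL-1R1 2 (14.8%) stood apart. Isotype 3 stood apart by another measure, with higher levels of acute-phase, macrophage and glucocorticoid-responsive genes than the other isotype libraries. Its mitochondrial share was 6.23%, and that of isotype 1 was 7.57%.

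Of the 15465 genes, 1 passed an adjusted p of 0.05 in edgeR's quasi-likelihood test (0.00647% of those tested), with a positive interaction, and 0 passed with a negative one. At an unadjusted p under 0.05 the test gave 1161 genes (7.51%), 717 positive (4.64%) and 444 negative (2.87%), and DESeq2 called 82 genes, 55 positive and 27 negative. The single call was Ddit4. The median interaction over all genes was 0.03, with 8173 genes positive and 7292 negative. The genes described below besides Ddit4 are therefore the leading genes by p and by list, given with their values and not as changes.

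Much of the leading interaction came from genes that were low in the agonist group alone. Each gene was assigned to the group whose mean log2 CPM lay farthest from the mean of the other groups. Among the 100 genes with the smallest p, agoCD40 was the low group in 47, against 9.99% of all genes. Combo was the high group in 12 of the 100 and the low group in 12, against 16.8% and 16% of all genes. In 43 of the 100, all 3 agoCD40 libraries lay below all 9 others, a separation that 0.938% of all genes showed. Combo lay below all 9 others in 7 of the 100 and above them in 4, against 1.24% and 1.69% of all genes. The test itself selected these 100 genes, so the shares describe what kind of pattern gave the small p. Among 82 DESeq2 calls the order was alike, with 39 low in agoCD40, 14 low in Combo and 10 high in Combo.

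The 12 leading genes with a positive interaction and the 12 with a negative one were all called by DESeq2. Each of the 24 kept its sign in all 22 alternative analyses, and each had the same sign as a difference of differences in CPM without a log. All 24 were chosen by small p in these same libraries. Their DESeq2 calls and kept signs were largely set by that choice and give no independent support. The 4 effects behind an interaction share libraries, so their values are set side by side below and not compared with each other.

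**Figure D1:**
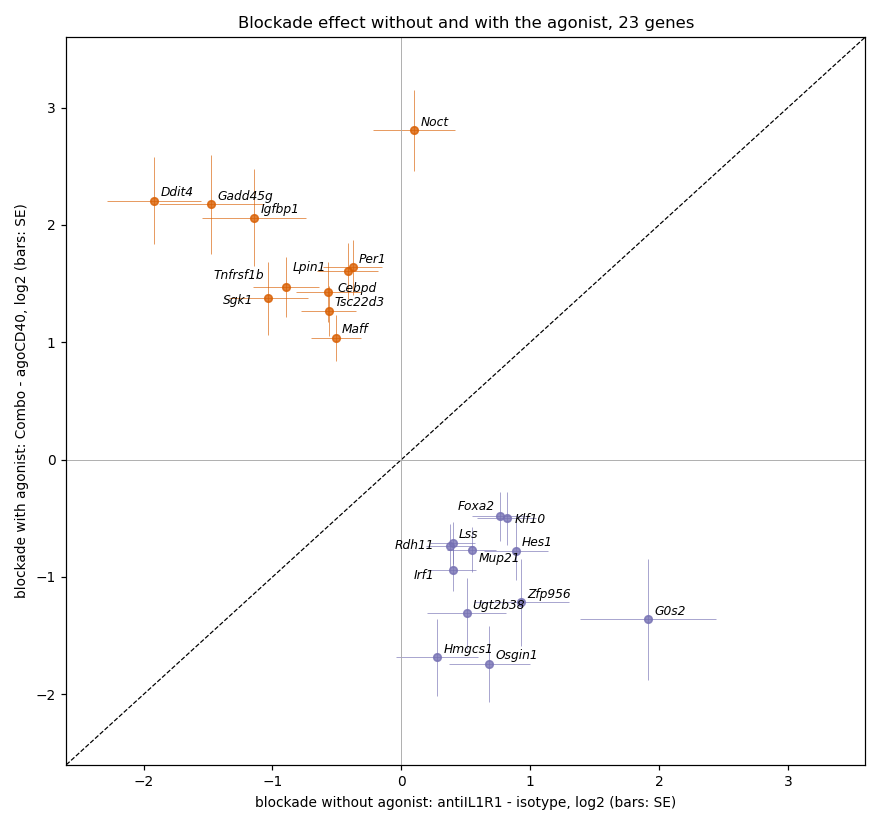
Log2 effect of IL-1R1 blockade without the agonist (x axis) and with it (y axis) for 11 of the 12 leading genes with a positive (orange) and the 12 with a negative interaction (purple), with SE bars. The dashed line marks equal effects, Ddit4 lies at -1.92 and 2.21, Noct at 0.10 and 2.81, and Hmgcs1 at 0.28 and -1.68.

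Ddit4 (ENSMUSG00000020108) encodes REDD1, a stress-induced inhibitor of mTORC1 signalling that glucocorticoids also induce. It measured 20.9, 20.8 and 41.1 CPM in isotype, 3.90, 5.38 and 6.44 in agoCD40, 7.10, 5.51 and 9.29 in anti-IL-1R1 and 22.2, 36.3 and 14.3 in Combo. Every library of either single antibody lay below every isotype and Combo library, the single-antibody groups overlapped each other, and so did isotype and Combo. The interaction was 4.13 ± 0.52 (log2 ± SE; edgeR adjusted p = 0.0422), and Ddit4 rose relative to what the single effects add up to. The agonist effect was -2.39 ± 0.37 without blockade and 1.73 ± 0.36 with it, and the blockade effect was -1.92 ± 0.37 without the agonist and 2.21 ± 0.37 with it. If the log2 effects had added, Combo would have measured 1.44 CPM, and its geometric mean was 22.7. The call held without isotype 1, isotype 2, Combo 1 or Combo 3 (adjusted p = 0.0172 to 0.0493) and was lost without any of the other 8 libraries (0.0656 to 0.237), with log2 values of 3.71 to 4.40 throughout. It was also lost with total-count scaling (adjusted p = 0.0785), limma on log2(TPM + 1) (0.169) and the replicate number as a block (0.092).

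Ddit4 stood in a list of 12 tested glucocorticoid-responsive genes, of which 11 had a positive and 1 a negative interaction. The list median was 2.10, against 0.03 for all genes, with 1 member called, 9 positive and 0 negative at an unadjusted p under 0.05, and 4 called by DESeq2. Over all 15465 genes 4.64% were positive and 2.87% negative at that p, and DESeq2 called 82. Every list below has the same background. The lists were written with earlier results of these data known, and this one holds the leading genes Ddit4, Gadd45g and Tsc22d3. Its counts and median, like those of the lists below, therefore give no independent support. The median agonist effect of the list was -1.42 without blockade and 0.58 with it, and the median blockade effect was -1.04 without the agonist and 1.02 with it. Isotype 3 held the highest median deviation of the list's members from their gene means (1.25 in log2 CPM). Without isotype 3 the median interaction was 1.62, and 8 members were positive at an unadjusted p under 0.05.

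Gadd45g (ENSMUSG00000021453), a growth-arrest protein of the stress response, measured 49.96, 98.9 and 69.2 CPM in isotype, 9.51, 9.36 and 9.28 in agoCD40, 21.2, 18.5 and 38.7 in anti-IL-1R1 and 22.4, 74.2 and 30.7 in Combo. The agoCD40 libraries lay within a narrow range below all 9 others, and Combo overlapped isotype and anti-IL-1R1. Its interaction was 3.65 ± 0.59 (adjusted p = 0.104), with a blockade effect of -1.47 ± 0.41 without and 2.18 ± 0.42 with the agonist. Tsc22d3 (ENSMUSG00000031431), which encodes the glucocorticoid-induced leucine zipper GILZ, measured 79.2, 120.2 and 122 CPM in isotype, 58.4, 62.6 and 64.4 in agoCD40, 77.6, 73.6 and 66.2 in anti-IL-1R1 and 125, 200.01 and 121 in Combo. All agoCD40 libraries were below all others, and 2 of 3 Combo libraries were above every other library. Its interaction was 1.83 ± 0.30 (adjusted p = 0.104), and Tsc22d3 was the 1 leading positive gene whose outlying group was Combo. Sgk1 (ENSMUSG00000019970), a kinase that glucocorticoids induce and that regulates ion transport, measured 36.6, 39.7 and 91.6 CPM in isotype, 13.6, 19.02 and 15.3 in agoCD40, 24.2, 29.7 and 28.3 in anti-IL-1R1 and 42.1, 50.2 and 32.04 in Combo. The agoCD40 group again lay below the other 9, anti-IL-1R1 lay below isotype and Combo, and the last pair overlapped. The interaction of Sgk1 was 2.41 ± 0.43 (adjusted p = 0.123).

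Mt2, a zinc-binding metallothionein of the same list, measured 84.96, 251 and 253 CPM in isotype, 53.8, 33.8 and 159 in agoCD40, 20.4, 32.5 and 42.99 in anti-IL-1R1 and 129.5, 53.8 and 23.6 in Combo, with overlap between all groups except isotype and anti-IL-1R1. Its interaction was 2.37 ± 0.91 (adjusted p = 0.630; 1.54 without Combo 1). Of 7 tested genes of the metallothionein and zinc transport list, 5 were positive and 2 negative, with a median of 0.77 and 3 positive at an unadjusted p under 0.05. EdgeR called 0 of the 7 and DESeq2 1.

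**Figure D2:**
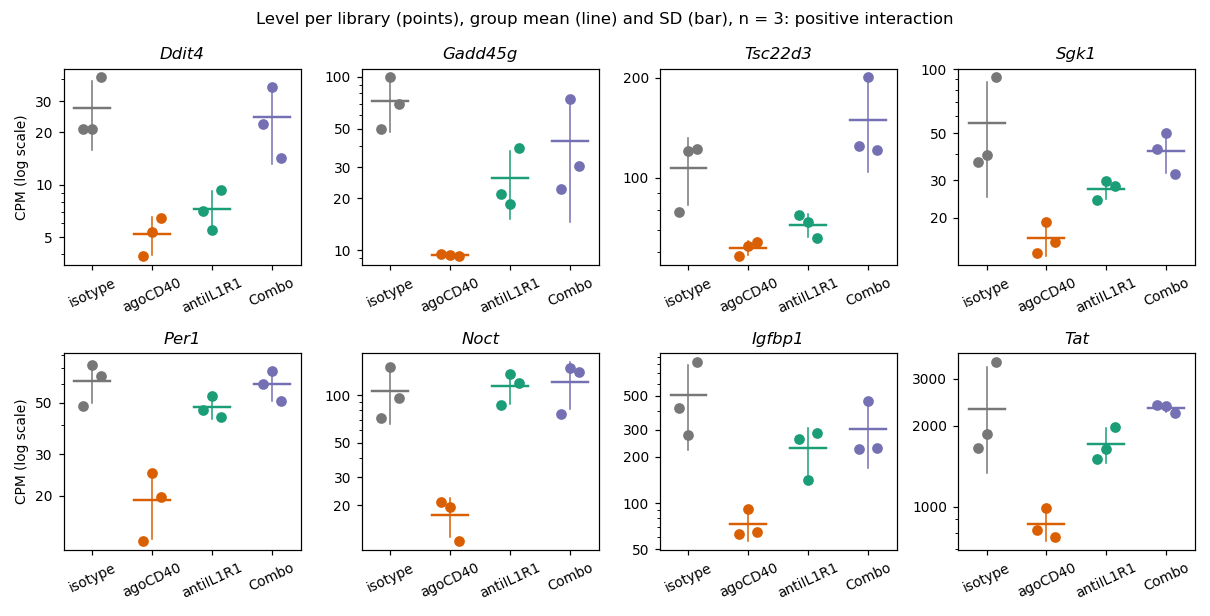
CPM on a log axis in each of the 12 libraries for 8 genes with a positive interaction (points, coloured by group), with the group mean (line) and SD (bar), n = 3. In all panels but Ddit4 the 3 agoCD40 points lie below the 9 others, and in the Ddit4 panel both single-antibody groups lie at 3.90 to 9.29 CPM.

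Among the 12 leading positive genes, Ddit4 had the only call and the clock gene Noct, described next, the largest blockade effect under the agonist. Nr4a1 and Fosb, described below with their list, had larger effects (3.70 and 3.69). Ddit4 and Noct were chosen on the 12 leading genes alone, and the bases before their starts are shown. RefSeq places them in the mouse build GRCm38.p6 at chr10:59951771-59952020 (minus strand) and chr3:51224197-51224446 (plus strand), each 250 bases up to the start and written 5′ to 3′ on the gene's strand, and the counts themselves were made on GRCm39. Capitals mark every match on either strand to the motifs searched: the E-box CACGTG, the cAMP response element half-site TGACG, the AP-1 site TGACTCA, the glucocorticoid receptor half-site AGAACA, the CCAAT box, and TCACCCC, a part of the sterol regulatory element.
Ddit4: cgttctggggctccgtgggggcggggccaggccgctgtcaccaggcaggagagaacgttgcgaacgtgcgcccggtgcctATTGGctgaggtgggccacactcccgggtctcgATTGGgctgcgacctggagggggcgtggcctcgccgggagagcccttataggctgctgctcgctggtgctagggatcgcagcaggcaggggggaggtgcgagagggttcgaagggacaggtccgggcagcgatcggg
Noct: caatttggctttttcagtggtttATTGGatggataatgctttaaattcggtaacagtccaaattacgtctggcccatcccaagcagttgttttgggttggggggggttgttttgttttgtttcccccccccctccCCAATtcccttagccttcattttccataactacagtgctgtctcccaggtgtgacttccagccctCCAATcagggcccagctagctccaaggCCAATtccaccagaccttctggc
Ddit4 held 2 CCAAT boxes, 170 and 137 bases before its start, and Noct held 4, at 227, 115, 50 and 23 bases. A CCAAT box was in 33.8% of all 32851 promoter windows of that length. Of the 12 leading positive genes 10 had a window in the RefSeq table, and of these CACGTG was in 4 (Gadd45g, Per1, Maff and Sgk1; 6.02% of all windows), TGACG in 4 (17.8%), AGAACA in 3 (Tsc22d3, Lpin1 and Sgk1; 16.1%), CCAAT in 5, TCACCCC in 1 (4.31%) and TGACTCA in 0 (4.46%). A gene counted if any of its windows held the motif, whereas the percentages are shares of single windows. The counts and percentages are therefore unlike measures and give no enrichment. These matches describe letters in a window and show no binding.

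Noct (ENSMUSG00000023087) encodes nocturnin, a phosphatase of NADP(H) with a strong daily rhythm in liver. It measured 71.3, 151 and 96.03 CPM in isotype, 20.9, 19.4 and 11.9 in agoCD40, 86.2, 136 and 119 in anti-IL-1R1 and 75.5, 148 and 141 in Combo. The agoCD40 libraries were several-fold below all 9 others, which overlapped among their groups. The agonist effect on Noct was -2.61 ± 0.34 alone and 0.09 ± 0.32 under blockade, giving an interaction of 2.71 ± 0.46 (adjusted p = 0.113). Per1 (ENSMUSG00000020893), a repressor of the clock that glucocorticoid and cAMP signals induce quickly, measured 48.5, 72.4 and 65.2 CPM in isotype, 12.8, 24.99 and 19.7 in agoCD40, 46.6, 53.5 and 43.2 in anti-IL-1R1 and 60.02, 68.5 and 50.8 in Combo. The agoCD40 group was again the low one and the other groups overlapped, with an interaction of 2.02 ± 0.33 (adjusted p = 0.104). Ciart, another clock repressor, measured 20.7, 31.4 and 18.3 CPM in isotype, 8.15, 9.03 and 16.8 in agoCD40, 18.5, 18.7 and 19.5 in anti-IL-1R1 and 26.2, 17.7 and 16.8 in Combo, with the highest agoCD40 library at the level of the lowest Combo library (1.15 ± 0.40; adjusted p = 0.570).

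The clock list as a whole was divided. Of 19 tested clock and clock-output genes 11 were positive and 8 negative, with a median of 0.14, 3 positive and 2 negative at an unadjusted p under 0.05, 0 called by edgeR and 2 by DESeq2. The negative pair was Nr1d1 (-1.05 ± 0.37), which encodes the repressor REV-ERBα, and Bhlhe41 (-1.07 ± 0.44), and in both all agoCD40 libraries lay above the 9 others (0.776% of all genes). The median agonist effect of the list was -0.06 without and -0.07 with blockade. Leaving out single libraries moved the median interaction between 0.01 (without agoCD40 1) and 0.26 (without agoCD40 2).

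Immediate-early transcription factors, which are transcribed within minutes of a stimulus, had a median interaction of 1.22 over 21 tested genes, 16 of them positive. At an unadjusted p under 0.05 they counted 10 positive genes and 1 negative, Junb (-1.50 ± 0.55), with 0 called by edgeR and 2 by DESeq2. In 8 of the 21 all agoCD40 libraries lay below the 9 others (0.938% of all genes). The median agonist effect was -1.57 without blockade and -0.16 with it. The median interaction was 0.74 without Combo 2 and 0.59 in limma on log2(TPM + 1).

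Maff (ENSMUSG00000042622), a small Maf factor, measured 29.1, 34.5 and 40.3 CPM in isotype, 10.6, 10.2 and 11.6 in agoCD40, 23.3, 25.6 and 24.3 in anti-IL-1R1 and 15.5, 24.4 and 26.6 in Combo. Its agoCD40 libraries were below and its isotype libraries above all others, with Combo and anti-IL-1R1 in between, and its interaction was 1.55 ± 0.27 (adjusted p = 0.123). Nr4a1 (ENSMUSG00000023034), an orphan nuclear receptor that promotes gluconeogenesis in liver, measured 22.6, 50.3 and 149 CPM in isotype, 4.16, 2.51 and 3.98 in agoCD40, 41.6, 20.8 and 56.1 in anti-IL-1R1 and 8.97, 82.97 and 45.99 in Combo. No agoCD40 library reached the lowest of the others, which spread widely within each group, and the interaction was 4.60 ± 1.06 (adjusted p = 0.286). Fosb, a subunit of AP-1, measured 11.6, 30.1 and 6.31 CPM in isotype, 0.255, 0.221 and 0.368 in agoCD40, 14.7, 2.98 and 13.97 in anti-IL-1R1 and 0.548, 6.13 and 4.38 in Combo. The agoCD40 libraries were near 0, Combo also lay below isotype, and the interaction was 4.29 ± 1.20 (adjusted p = 0.482). Atf3, a stress-induced repressor, was named from the unfolded protein and integrated stress response list and not from this one. It measured 52.6, 50.2 and 29.004 CPM in isotype, 4.03, 1.51 and 3.13 in agoCD40, 63.9, 20.99 and 51.97 in anti-IL-1R1 and 10.95, 14.3 and 17.2 in Combo, so that both groups given the agonist lay below both groups without it and agoCD40 was lowest (2.24 ± 0.57; adjusted p = 0.372). For Atf3 the difference of differences without a log was 9.55 ± 14.9 CPM (SE), smaller than its error.

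Genes of glucose production and amino acid use in fasting were mostly positive. Of 25 tested genes of gluconeogenesis and amino acid breakdown, 22 were positive and 3 negative, with a median of 0.64, 9 positive and 1 negative (Prodh, -0.70 ± 0.32) at an unadjusted p under 0.05, 0 called by edgeR and 3 by DESeq2. In 4 of them agoCD40 lay below all 9 others (0.938% of all genes) and in 2 Combo lay above (1.69%). The median agonist effect was -0.36 without blockade and 0.33 with it. With the mitochondrial percent as a covariate the list median was 0.25, and without isotype 3 it was 0.37.

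Igfbp1 (ENSMUSG00000020429), which binds insulin-like growth factors and is induced in fasting, measured 416, 278 and 825 CPM in isotype, 62.5, 92.1 and 64.9 in agoCD40, 262, 141 and 286 in anti-IL-1R1 and 225, 461 and 229.6 in Combo. Igfbp1 in agoCD40 stayed below every other library, and the other groups overlapped, with an interaction of 3.20 ± 0.58 (adjusted p = 0.123). Tat (ENSMUSG00000001670), the tyrosine aminotransferase that glucocorticoids induce, measured 1655, 1864 and 3448 CPM in isotype, 819, 991 and 775 in agoCD40, 1501, 1642 and 1991 in anti-IL-1R1 and 2389, 2378 and 2245 in Combo. All agoCD40 libraries were below the rest, and the Combo libraries lay close together above anti-IL-1R1 and within the range of isotype (1.88 ± 0.34; adjusted p = 0.126). Slc38a2, a transporter of neutral amino acids, measured 276, 374 and 419 CPM in isotype, 162, 127 and 124 in agoCD40, 241, 224 and 259 in anti-IL-1R1 and 211, 396 and 280.3 in Combo, again with agoCD40 lowest (1.67 ± 0.32; adjusted p = 0.138).

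Other leading genes with a positive interaction belong to lipid metabolism and inflammation. Lpin1 (ENSMUSG00000020593), a phosphatidate phosphatase that also coactivates PPARα, measured 156, 166 and 230.1 CPM in isotype, 36.6, 66.7 and 59.9 in agoCD40, 149, 119 and 146 in anti-IL-1R1 and 172, 195 and 131 in Combo, with agoCD40 below all others and Combo overlapping both other groups (2.03 ± 0.33; adjusted p = 0.104). Cebpd (ENSMUSG00000071637), a transcription factor of the acute-phase response, measured 25.6, 37.02 and 26.7 CPM in isotype, 6.96, 8.40 and 8.73 in agoCD40, 14.1, 19.1 and 27.1 in anti-IL-1R1 and 22.4, 26.6 and 15.9 in Combo, with agoCD40 again below the rest (2.00 ± 0.36; adjusted p = 0.123). Tnfrsf1b (ENSMUSG00000028599), which encodes TNF receptor 2, measured 43.6, 50.1 and 81.1 CPM in isotype, 18.9, 30.04 and 22.9 in agoCD40, 37.4, 30.5 and 26.4 in anti-IL-1R1 and 59.8, 83.2 and 56.1 in Combo. Both single-antibody groups lay below isotype and Combo, as for Ddit4, and they overlapped each other (2.36 ± 0.36; adjusted p = 0.104).

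Of 25 tested genes of cholesterol synthesis 3 had a positive and 22 a negative interaction, with a median of -0.58 against 0.03 for all genes, 13 negative and 0 positive at an unadjusted p under 0.05, 0 called by edgeR and 5 by DESeq2. In 9 of the 25 all Combo libraries lay below the 9 others (1.24% of all genes), and in 2 all anti-IL-1R1 libraries lay above (0.453%). The median agonist effect was -0.02 without blockade and -0.62 with it, and the median blockade effect was 0.18 without the agonist and -0.39 with it. The list median was negative in all 21 alternatives on a log scale, from -0.74 to -0.24.

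Hmgcs1 (ENSMUSG00000093930), the synthase that makes HMG-CoA, measured 391, 629.8 and 328 CPM in isotype, 857, 383 and 393 in agoCD40, 446, 516 and 674 in anti-IL-1R1 and 144, 189.8 and 174 in Combo. Combo was below all 9 other libraries, which overlapped among their groups, although agoCD40 1 was far above the rest of its group. The interaction was -1.96 ± 0.45 (adjusted p = 0.286), and without agoCD40 1 it was -1.48. Combo would have measured 628 CPM if the log2 effects had added, and its geometric mean was 168. Lss (ENSMUSG00000033105), which closes the sterol ring as lanosterol synthase, measured 61.97, 82.1 and 66.8 CPM in isotype, 85.99, 64.7 and 53.02 in agoCD40, 98.8, 86.7 and 92.4 in anti-IL-1R1 and 42.96, 38.7 and 42.8 in Combo. For Lss in CPM, Combo lay below and anti-IL-1R1 above all other libraries (-1.11 ± 0.25; adjusted p = 0.286). In the deposited TPM the mean of Lss was 19.9 in isotype, 17.7 in agoCD40, 19.4 in anti-IL-1R1 and 14.2 in Combo, and limma on log2(TPM + 1) gave -0.33. Fdft1, the squalene synthase, measured 146, 169.5 and 147 CPM in isotype, 225, 146 and 165 in agoCD40, 179, 176 and 208 in anti-IL-1R1 and 109.7, 102 and 121 in Combo, also with Combo below the 9 others (-0.97 ± 0.24; adjusted p = 0.347; -0.47 in limma on log2(TPM + 1)).

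The 250 bases before the start of Hmgcs1 are shown as the leading gene of this pathway, read from RefSeq on GRCm38.p6 at chr13:119690101-119690350 (plus strand), with the same motifs in capitals.
Hmgcs1: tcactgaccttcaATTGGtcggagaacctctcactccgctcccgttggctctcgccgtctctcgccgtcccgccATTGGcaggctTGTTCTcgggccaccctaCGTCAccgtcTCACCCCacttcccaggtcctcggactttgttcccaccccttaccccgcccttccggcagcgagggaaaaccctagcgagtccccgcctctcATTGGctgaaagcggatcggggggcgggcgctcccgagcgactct
The window held TCACCCC 137 bases before the start, TGACG at 147, AGAACA at 165 and CCAAT boxes at 237, 176 and 45. Of the 12 leading negative genes 10 had a window, and of these 1 held TCACCCC, 4 TGACG, 3 AGAACA, 6 a CCAAT box, 1 CACGTG and 1 TGACTCA.

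Fatty acid synthesis genes were divided in sign. The 19 tested genes had a median of 0.03 with 10 positive and 9 negative, 2 positive and 1 negative at an unadjusted p under 0.05, and 0 called by edgeR or DESeq2. Srebf1, which encodes the transcription factor SREBP-1 of this pathway, measured 461, 468 and 355 CPM in isotype, 190.1, 243 and 238 in agoCD40, 452, 518 and 605 in anti-IL-1R1 and 417, 415 and 532 in Combo, with agoCD40 below all 9 others (0.73 ± 0.25; adjusted p = 0.554). Fasn, the fatty acid synthase, measured 542, 573 and 504 CPM in isotype, 379, 395 and 269 in agoCD40, 642, 705 and 642 in anti-IL-1R1 and 508, 889.9 and 632 in Combo, with agoCD40 again below the rest (0.66 ± 0.29; adjusted p = 0.648; 0.42 without Combo 2 and 0.17 in limma on log2(TPM + 1)). Fatty acid oxidation and PPARα targets had a median of 0.15 over 26 genes, which was -0.12 without isotype 1 and -0.02 without anti-IL-1R1 2. Leaving out single libraries moved the median of fatty acid synthesis between -0.06 (without agoCD40 3) and 0.14 (without anti-IL-1R1 1).

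**Figure D3:**
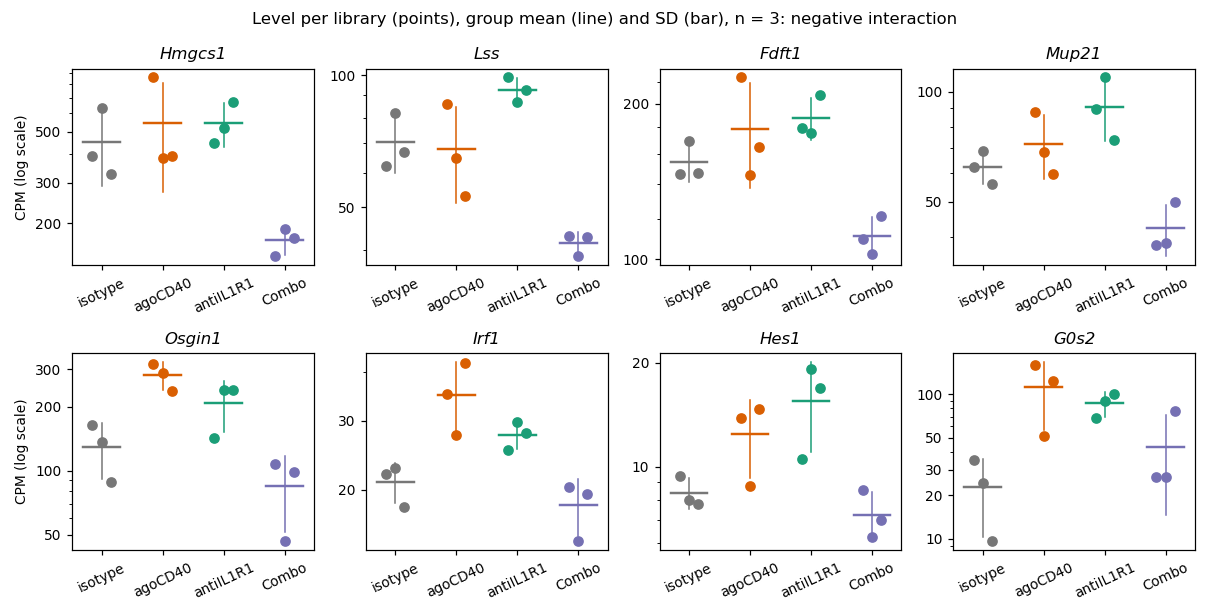
CPM on a log axis in each of the 12 libraries for 8 genes with a negative interaction (points, coloured by group), with the group mean (line) and SD (bar), n = 3. The Combo points lie below the 9 others for Hmgcs1, Lss, Fdft1 and Mup21, while Osgin1, Irf1, Hes1 and G0s2 show higher means in both single-antibody groups than in isotype and Combo.

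Another pattern among the leading negative genes was a higher level with either antibody alone than in isotype or Combo. Osgin1 (ENSMUSG00000074063), an oxidative stress response gene that NRF2 induces, measured 164, 137 and 88.1 CPM in isotype, 319.5, 289.8 and 237 in agoCD40, 143, 239.7 and 241 in anti-IL-1R1 and 107, 46.6 and 99.02 in Combo. Its agoCD40 libraries were all above isotype and Combo, anti-IL-1R1 overlapped isotype, and Combo overlapped isotype (-2.42 ± 0.45; adjusted p = 0.126). Irf1 (ENSMUSG00000018899), a transcription factor that interferon-γ induces, measured 21.98, 22.8 and 18.1 CPM in isotype, 35.1, 27.6 and 42.2 in agoCD40, 25.4, 29.7 and 27.9 in anti-IL-1R1 and 20.4, 14.8 and 19.6 in Combo. For Irf1 both single-antibody groups lay above isotype and Combo with no overlap, and isotype overlapped Combo (-1.34 ± 0.26; adjusted p = 0.139). The median was -0.08 over 22 genes of the interferon-γ list, with 1 positive and 1 negative at an unadjusted p under 0.05, and -0.24 over 24 genes of the type I interferon list, with 0 and 2. Leaving out single libraries moved the first median between -0.31 (without anti-IL-1R1 1) and 0.09 (without anti-IL-1R1 2), and the other between -0.46 (without agoCD40 2) and -0.03 (without agoCD40 3).

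Hes1, a repressor downstream of Notch, measured 9.38, 7.99 and 7.79 CPM in isotype, 13.8, 8.81 and 14.7 in agoCD40, 10.5, 19.2 and 16.9 in anti-IL-1R1 and 8.55, 6.25 and 6.998 in Combo, with agoCD40 overlapping isotype and with Combo below both single-antibody groups (-1.67 ± 0.36; adjusted p = 0.232). G0s2, an inhibitor of the lipase ATGL, measured 35.2, 24.3 and 9.68 CPM in isotype, 159, 51.8 and 124 in agoCD40, 68.5, 90.2 and 101 in anti-IL-1R1 and 26.9, 26.9 and 76.8 in Combo. All libraries of either single antibody were above isotype, and Combo 3 lay within their range (-3.27 ± 0.73; adjusted p = 0.275). Klf10, a zinc finger factor that TGF-β induces, measured 40.04, 23.2 and 22.6 CPM in isotype, 39.2, 38.97 and 33.1 in agoCD40, 61.2, 43.8 and 46.4 in anti-IL-1R1 and 29.2, 21.02 and 28.5 in Combo, with Combo below both single-antibody groups (-1.32 ± 0.32; adjusted p = 0.338). Foxa2, a transcription factor of hepatocytes, measured 13.03, 7.23 and 9.68 CPM in isotype, 19.4, 16.6 and 20.1 in agoCD40, 17.8, 16.7 and 16.4 in anti-IL-1R1 and 16.7, 12.3 and 11.2 in Combo. Isotype was the low group for Foxa2 and the Combo mean lay between it and the single antibodies (-1.25 ± 0.30; adjusted p = 0.326).

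Mup21, a member of the major urinary protein family, measured 62.2, 68.9 and 55.9 CPM in isotype, 87.7, 68.6 and 59.7 in agoCD40, 89.7, 109 and 73.8 in anti-IL-1R1 and 38.1, 38.6 and 50.04 in Combo, and Combo lay below all 9 others (-1.31 ± 0.27; adjusted p = 0.193). Rdh11, a retinol dehydrogenase, measured 51.5, 55.1 and 63.3 CPM in isotype, 82.5, 69.7 and 52.2 in agoCD40, 74.5, 70.7 and 75.4 in anti-IL-1R1 and 33.5, 50.01 and 39.5 in Combo, with Combo also below them (-1.11 ± 0.27; adjusted p = 0.325; -0.58 in limma on log2(TPM + 1)). Ugt2b38, a glucuronosyltransferase, measured 9.06, 8.69 and 6.97 CPM in isotype, 77.5, 28.8 and 32.7 in agoCD40, 12.1, 11.6 and 11.3 in anti-IL-1R1 and 16.8, 17.8 and 21.4 in Combo, so that agoCD40 was the high group and Combo lay above isotype and anti-IL-1R1 (-1.82 ± 0.43; adjusted p = 0.309). Mup21 and Ugt2b38 belong to families of near-identical copies, among which the counting may have split reads. Zfp956, a zinc finger gene, had low levels of 1.26 to 5.48 CPM and an interaction of -2.15 ± 0.52 (adjusted p = 0.336; -1.03 in limma on log2(TPM + 1)).

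**Figure D4:**
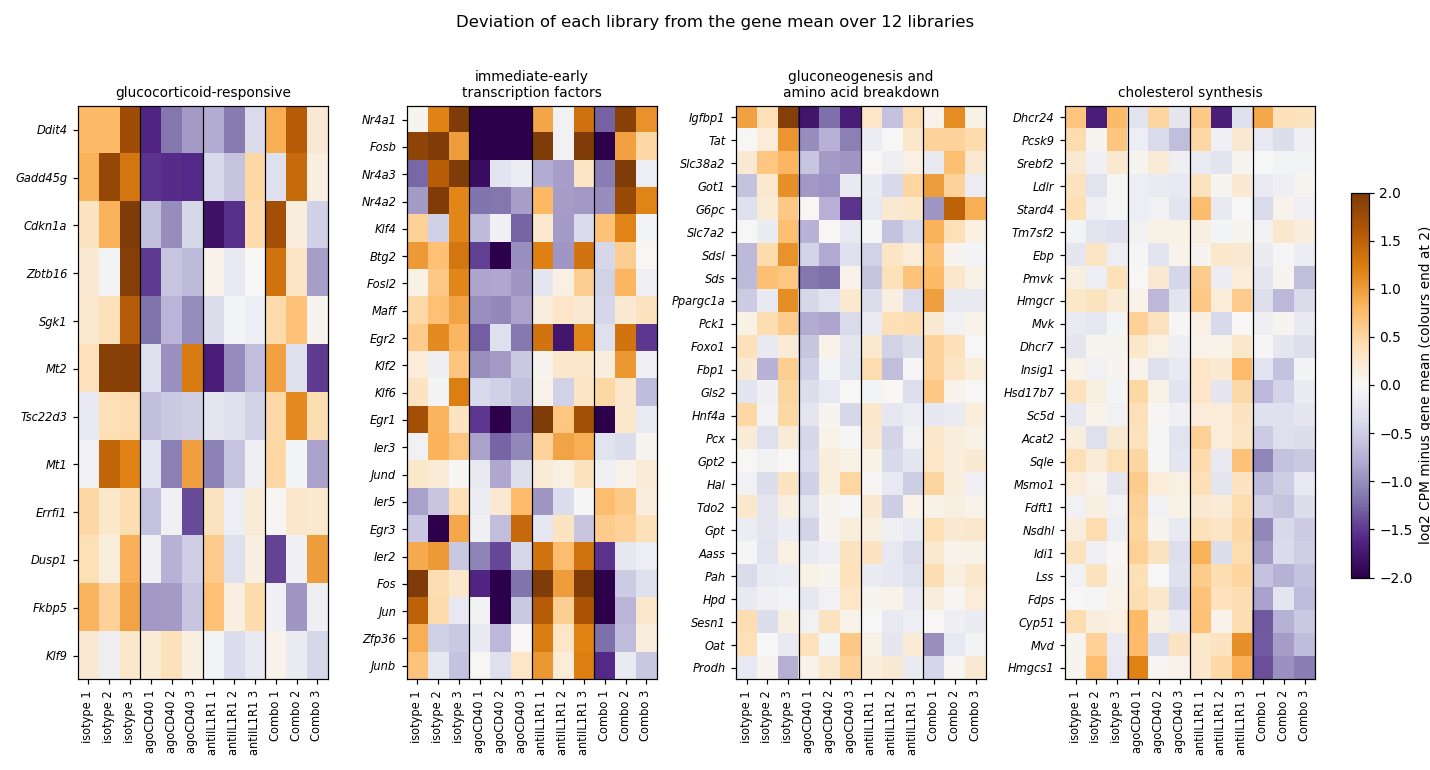
Deviation of log2 CPM from the gene's mean over the 12 libraries, for all tested members of 4 gene lists (rows, ordered by interaction) in each library (columns, ordered by group), with colours ending at 2. The agoCD40 columns are low for most glucocorticoid-responsive genes and many immediate-early genes, and the Combo columns are low for most genes of cholesterol synthesis.

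Marker lists of neutrophils and of monocytes and macrophages had positive medians, with blockade alone as the low group for several genes. In whole liver, fewer cells of a type and less RNA per cell cannot be told apart. Of 15 tested neutrophil genes 13 were positive and 2 negative, with a median of 1.84 (1.54 without the 4 genes that had 3 or fewer counts in a group), 7 positive at an unadjusted p under 0.05, and 0 called by edgeR or DESeq2. In 5 of them all anti-IL-1R1 libraries lay below the 9 others (0.621% of all genes). The median blockade effect was -1.97 without the agonist and -0.20 with it. In limma on log2(TPM + 1) the median interaction of the neutrophil list was 0.60, where that of all genes was 0.20.

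S100a8, a subunit of the neutrophil protein calprotectin, measured 4.07, 7.74 and 12.02 CPM in isotype, 21.4, 13.01 and 11.8 in agoCD40, 1.09, 0.735 and 1.95 in anti-IL-1R1 and 7.58, 18.9 and 10.6 in Combo. The anti-IL-1R1 libraries were the low ones and the agoCD40 and Combo libraries overlapped (2.34 ± 0.64; adjusted p = 0.467). Its partner S100a9 measured 5.90, 9.09 and 13.8 CPM in isotype, 25.8, 11.8 and 14.8 in agoCD40, 1.87, 1.10 and 3.02 in anti-IL-1R1 and 7.92, 17.8 and 13.3 in Combo, in the same order (1.84 ± 0.60; adjusted p = 0.544). Without a log, the difference of differences was 3.62 ± 5.10 CPM (SE) for S100a8 and 3.11 ± 5.62 for S100a9, below its error in both. Cd177, a surface protein of neutrophils, had 24 counts in isotype, 27 in agoCD40, 2 in anti-IL-1R1 and 68 in Combo, summed over 3 libraries.

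Of 22 tested genes of monocytes and recruited macrophages 20 were positive, with a median of 0.99, 7 positive and 1 negative (Spp1, -1.23 ± 0.56) at an unadjusted p under 0.05, and 0 called by edgeR or DESeq2. Ms4a6c, a membrane protein of myeloid cells, measured 2.36, 1.66 and 6.16 CPM in isotype, 1.44, 2.14 and 1.73 in agoCD40, 1.14, 0.939 and 1.31 in anti-IL-1R1 and 4.80, 2.44 and 2.23 in Combo, with anti-IL-1R1 lowest (2.42 ± 0.68; adjusted p = 0.482). Lyz2, the lysozyme of myeloid cells, measured 85.7, 59.4 and 156 CPM in isotype, 102, 111 and 134 in agoCD40, 58.7, 65.3 and 73.8 in anti-IL-1R1 and 159, 178 and 146 in Combo. Lyz2 in Combo exceeded agoCD40 in every library and overlapped isotype 3 (1.09 ± 0.39; adjusted p = 0.586; 0.62 without isotype 3).

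Kupffer cells, the liver's own macrophages, line its sinusoids. Of their 20 tested genes 17 were positive, with a median of 0.90, 9 positive and 1 negative (Id3, -0.84 ± 0.33) at an unadjusted p under 0.05, and 0 called by edgeR or DESeq2. In 5 of the 20 all isotype libraries lay above the 9 others (0.595% of all genes), and in 0 did anti-IL-1R1 lie below them. The median agonist effect of the Kupffer list was -0.70 without blockade and 0.28 with it, and the median blockade effect was -0.49 without the agonist and 0.29 with it. Cd5l, a secreted protein of these cells, measured 126, 72.2 and 177 CPM in isotype, 53.6, 92.9 and 64.5 in agoCD40, 78.3, 61.8 and 77.7 in anti-IL-1R1 and 136, 122 and 88.7 in Combo. Combo lay above anti-IL-1R1 and the other pairs of groups overlapped (1.50 ± 0.42; adjusted p = 0.482). C1qb, a chain of complement C1q, measured 53.6, 53.4 and 93.2 CPM in isotype, 39.4, 51.9 and 47.98 in agoCD40, 30.99, 49.8 and 54.3 in anti-IL-1R1 and 85.4, 74.2 and 60.9 in Combo, and isotype 3 was its highest library (1.23 ± 0.36; adjusted p = 0.507). Vcam1, an adhesion molecule of endothelium and macrophages, was named from the list of genes that IL-1 induces and not from the Kupffer list. It measured 15.1, 15.8 and 40.9 CPM in isotype, 13.9, 16.9 and 18.7 in agoCD40, 10.4, 10.2 and 14.6 in anti-IL-1R1 and 41.8, 30.2 and 18.9 in Combo, with isotype 3 far above the rest of its group (1.91 ± 0.52; adjusted p = 0.459; 1.27 without isotype 3). From the same list as Vcam1, Nfkbia was positive (0.52 ± 0.18; adjusted p = 0.576) and Cxcl1 negative (-1.49 ± 0.61; adjusted p = 0.642). Cxcl1 measured 2.86, 3.72 and 8.64 CPM in Combo, against 25.8, 43.4 and 27.3 in isotype. Its blockade effect was 0.25 ± 0.42 without the agonist and -1.24 ± 0.44 with it. Without isotype 3 the median of the Kupffer list was 0.51, of the monocyte list 0.59 and of the neutrophil list 1.28, with 5, 2 and 3 members positive at an unadjusted p under 0.05.

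Stellate cell and matrix genes had a median of 1.01 with 21 of 22 positive, but 1 member at an unadjusted p under 0.05, Col4a2, and 0 called by edgeR or DESeq2. Col4a2, a chain of basement membrane collagen, measured 21.9, 21.5 and 35.4 CPM in isotype, 24.3, 44.3 and 25.1 in agoCD40, 17.2, 14.4 and 17.2 in anti-IL-1R1 and 71.9, 42.3 and 25.97 in Combo, and Combo 1 was its highest library (1.27 ± 0.48; adjusted p = 0.625; 0.82 without it). Without Combo 1 the list median was 0.32, and without isotype 3 it was 0.39. Endothelial genes had a median of 0.48 with 19 of 21 positive and 1 at an unadjusted p under 0.05, and the median was 1.21 without agoCD40 2 and 0.30 without agoCD40 1.

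B-cell and plasma-cell genes had a negative median of -0.62, with 20 of 23 negative, 4 negative and 1 positive at an unadjusted p under 0.05, and 0 called by edgeR or DESeq2. In 2 of the 23 all isotype libraries lay below the 9 others (0.647% of all genes). Leaving out single libraries moved the list median between -1.01 (without isotype 2) and -0.19 (without agoCD40 3), and it was -0.31 without isotype 3. Their median agonist effect was 2.46 without blockade and 1.92 with it, and their median blockade effect was 0.45 without the agonist and -0.23 with it. Jchain, which joins IgM and IgA into polymers, measured 0.214, 0.904 and 0.334 CPM in isotype, 12.4, 11.2 and 19.2 in agoCD40, 2.28, 1.47 and 1.31 in anti-IL-1R1 and 20.4, 16.98 and 12.4 in Combo. Both groups given the agonist lay above both groups without it and overlapped each other, and anti-IL-1R1 lay above isotype (-1.58 ± 0.57; adjusted p = 0.590). Without a log the difference of differences for Jchain was 1.11 ± 3.44 CPM (SE), so the negative value belongs to the log scale.

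T-cell genes (median 0.57 over 20), NK and cytotoxic genes (0.50 over 11) and class II presentation genes (0.51 over 11) had 1, 0 and 1 member at an unadjusted p under 0.05, and edgeR and DESeq2 called 0 of each list. The medians moved when single libraries were left out, for T cells between 0.23 (without anti-IL-1R1 2) and 1.08 (without anti-IL-1R1 3), for NK and cytotoxic genes between -0.33 (without isotype 3) and 0.91 (without anti-IL-1R1 2), and for class II between 0.04 (without isotype 3) and 0.83 (without agoCD40 3 or anti-IL-1R1 3). Class I presentation genes had a median of -0.13 over 15 genes, between -0.25 (without agoCD40 2) and 0.01 (without agoCD40 3).

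The antibody targets themselves showed no interaction past the threshold. Cd40 measured 0.375, 0 and 0.853 CPM in isotype, 1.10, 0.700 and 1.66 in agoCD40, 0.319, 0.0408 and 0.476 in anti-IL-1R1 and 0.884, 0.481 and 1.01 in Combo (0.05 ± 1.15; adjusted p = 0.993), levels near the limit of these counts, with an interaction of -1.12 without isotype 3 and 0.69 without anti-IL-1R1 3. Il1r1, the receptor that the blocking antibody binds, measured 66.8, 81.6 and 53.7 CPM in isotype, 43.5, 29.5 and 44.9 in agoCD40, 42.2, 44.2 and 38.6 in anti-IL-1R1 and 30.1, 34.2 and 31.4 in Combo. Isotype was the high group and Combo overlapped only agoCD40 (0.39 ± 0.26; adjusted p = 0.745; 0.23 without isotype 2 and 0.22 without agoCD40 2). Il1a, which encodes IL-1α, measured 6.59, 5.73 and 12.3 CPM in isotype, 3.18, 2.51 and 2.21 in agoCD40, 3.69, 4.61 and 6.67 in anti-IL-1R1 and 3.66, 5.41 and 2.66 in Combo, with agoCD40 lowest apart from 1 Combo library within its range (1.29 ± 0.50; adjusted p = 0.636). Il1b, which encodes IL-1β, measured 7.45, 5.22 and 20.3 CPM in isotype, 3.48, 2.43 and 4.57 in agoCD40, 5.46, 3.80 and 6.75 in anti-IL-1R1 and 3.58, 11.6 and 2.32 in Combo, with isotype 3 and Combo 2 above the rest (1.79 ± 0.82; adjusted p = 0.665). The interaction of Il1b was 0.98 without isotype 3 and 0.80 without Combo 2. Il1rn, the receptor antagonist, measured 2.57, 1.11 and 6.64 CPM in isotype, 3.27, 3.94 and 6.11 in agoCD40, 1.59, 1.84 and 3.30 in anti-IL-1R1 and 9.48, 3.12 and 2.74 in Combo, with overlap among all groups (0.83 ± 0.86; adjusted p = 0.808; -0.0927 without isotype 3 and 0.03 without Combo 1).

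The pathways that both antibodies address had medians close to that of all genes or moderately above it. The IL-1 family list had a median of 0.30 over 18 genes (4 positive and 1 negative at an unadjusted p under 0.05), the list of genes that IL-1 induces 0.18 over 16 (3 and 2), and the CD40 and NF-κB list 0.44 over 19 (3 and 0), with 0 called by edgeR or DESeq2. Without isotype 3 the CD40 and NF-κB median was 0.14, that of the genes that IL-1 induces was -0.08 without Combo 2 and 0.41 without agoCD40 3, and that of the IL-1 family was 0.17 without Combo 1. Acute-phase proteins had a median of 0.43 with 24 of 30 positive, 4 positive and 0 negative at an unadjusted p under 0.05, and 0 called by edgeR or DESeq2. In 6 of the 30 all isotype libraries lay above the 9 others (0.595% of all genes) and in 4 all Combo libraries lay below (1.24%). Their median agonist effect was -0.77 without blockade and -0.43 with it. Cd14, a coreceptor for bacterial lipopolysaccharide, measured 5.57, 6.38 and 16.3 CPM in isotype, 2.63, 2.29 and 3.50 in agoCD40, 3.64, 4.41 and 6.15 in anti-IL-1R1 and 4.38, 5.45 and 3.37 in Combo, with isotype 3 far above the others (1.64 ± 0.55; adjusted p = 0.544; 0.98 without it). Lbp, the lipopolysaccharide-binding protein, measured 111, 82.03 and 154 CPM in isotype, 64.2, 64.95 and 83.03 in agoCD40, 64.4, 67.1 and 71.8 in anti-IL-1R1 and 61.6, 71.9 and 65.97 in Combo, with all treated groups overlapping (0.69 ± 0.28; adjusted p = 0.642; 0.42 without isotype 3). Without isotype 3 the acute-phase median was 0.21 and 1 member was at an unadjusted p under 0.05.

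The unfolded protein and integrated stress response list divided evenly, 11 positive and 11 negative with a median of 0.01 (-0.15 without anti-IL-1R1 2 and 0.10 without anti-IL-1R1 3), 3 positive and 2 negative at an unadjusted p under 0.05, 0 called by edgeR and 2 by DESeq2. Its leading member Herpud1, which acts in the removal of misfolded proteins from the endoplasmic reticulum, measured 673, 565 and 681 CPM in isotype, 301, 389 and 291 in agoCD40, 576, 463 and 516 in anti-IL-1R1 and 499, 503 and 529 in Combo. Herpud1 in agoCD40 was below all 9 others and the Combo libraries lay close together (0.94 ± 0.22; adjusted p = 0.286). Hepatocyte identity genes had a median of -0.20 over 20 genes, drug metabolism genes -0.16 over 35 and bile acid genes -0.25 over 17. Leaving out single libraries moved the drug metabolism median between -0.41 (without isotype 1) and -0.06 (without isotype 3 or agoCD40 3), and the bile acid median between -0.52 (without isotype 1) and -0.01 (without anti-IL-1R1 1). In limma on log2(TPM + 0.1) the drug metabolism median was 0.08, where that of all genes was 0.28. Against its negative median, this list had 3 positive members and 1 negative at an unadjusted p under 0.05. The positive members were Cyp2b10 (2.16 ± 0.65; adjusted p = 0.536), Por (0.78 ± 0.25; 0.544) and Cyp2a4 (6.86 ± 2.19; 0.544; 2.36 without isotype 3). The 15 mitochondrially encoded genes had a median of -0.48 with 14 negative and 0 at an unadjusted p under 0.05 beside the interaction of -3.76 percentage points in the mitochondrial share, and the median was -1.10 without isotype 2 and -0.20 without anti-IL-1R1 2. With the mitochondrial percent as a covariate, edgeR called 3 genes, Ddit4 (3.82), Noct (2.98) and Tcim (1.87).

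**Figure D5:**
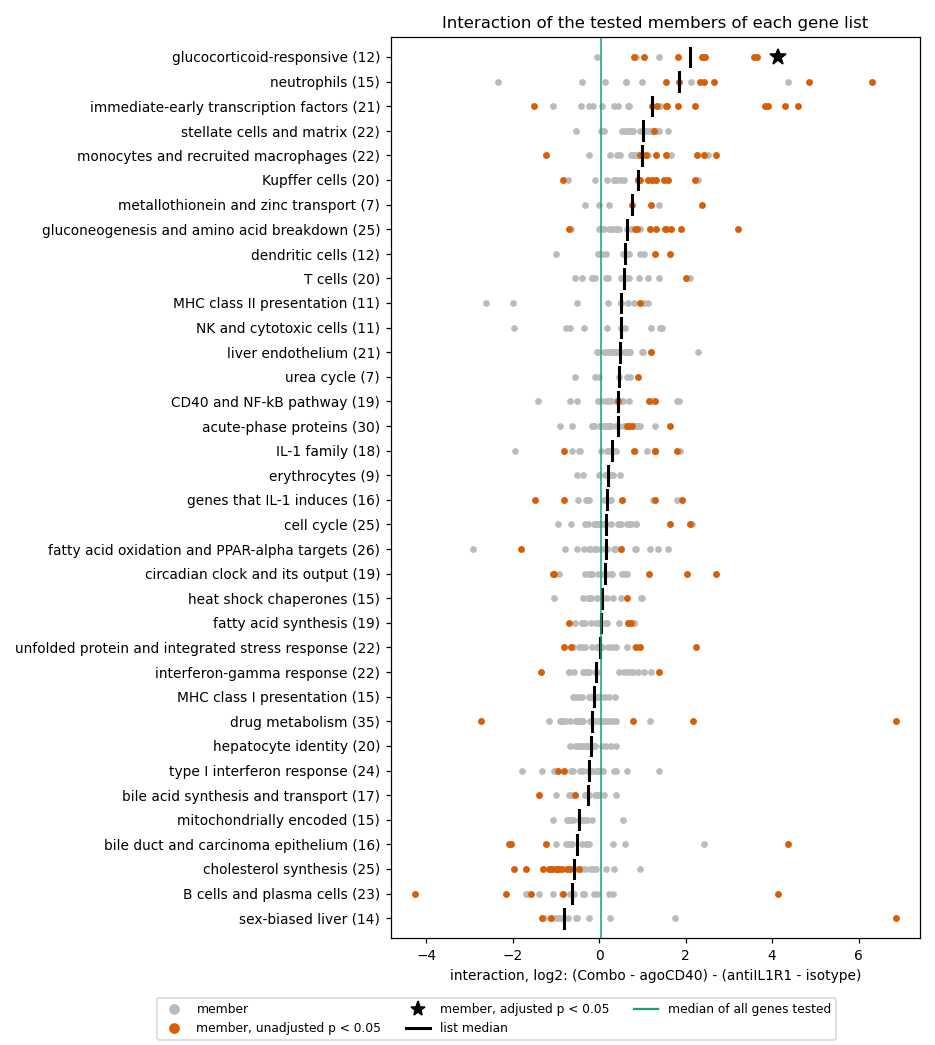
Interaction (log2, x axis) of every tested member (points) of the gene lists with more than 4 tested genes (rows, number tested in brackets, ordered by median), with the list median (black bar) and the median of all genes (green line). Ddit4 carries the star of an adjusted p under 0.05, and the medians run from 2.10 for glucocorticoid-responsive genes to -0.80 for sex-biased liver genes.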

How the data were processed

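Poly(A)-selected RNA of 12 liver libraries was sequenced, and titles gave the groups. The authors deposited a table of expected counts (estimated counts per gene, unscaled) and a table of TPM values, with a column for every library. Among the tools in the submitters' processing notes are the aligner STAR and the quantifier RSEM 1.3.1, with GRCm39 as the build, but the notes assign no roles, and what produced the deposited counts is unknown here. Counts were rounded and fitted in R 4.3.3 with edgeR 4.0.16 (filterByExpr with minimum count 10, TMM scaling, a mean per group over all 12 libraries). The interaction was tested with the quasi-likelihood F test and Benjamini-Hochberg adjustment over 15465 genes, with a threshold of 0.05. SE is the log2 value divided by the square root of F. CPM use TMM-scaled totals. The common biological coefficient of variation was 0.291. The steps were tested on simulated counts.

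Genes were named by rule: up to 12 in each direction with the smallest p and a mean of at least 1 CPM, leaving out predicted genes and immunoglobulin segments, from each of 38 gene lists up to 3 members by smallest p, and Cd40, Il1r1, Il1a, Il1b and Il1rn. The question, the rule and the lists were chosen with earlier results of these data known, so lists have counts and medians and no test. Of the leading genes with a positive interaction, 1 counts among the 12 and is not reported here. Nr1d1, Bhlhe41, Junb, Prodh, Id3, Tcim and Pfkfb3 are outside the rule and were picked after their values were seen. Alternatives were RLE and total-count scaling, DESeq2 1.42.0, no filter, limma 3.58.1 on log2(TPM + 1), log2(TPM + 0.1) and TPM, a replicate block, the mitochondrial percent as a covariate, leaving out each library, and leaving out isotype 2 with anti-IL-1R1 2. Promoter windows and their coordinates came from the RefSeq table of GRCm38.p6, and no coordinates were converted.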

Additional observations from a re-analysis of the deposited data

Results flagged for a closer look

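Ddit4 was the only gene for which the test of the difference between effects passed its threshold: the agonist effect differed by 4.13 on the log2 scale between livers with and without IL-1R1 blockade (edgeR adjusted p = 0.0422). The 3 Combo libraries all lay above the 3 agoCD40 libraries, and the 3 anti-IL-1R1 libraries all lay below the 3 isotype libraries.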

How the results depend on the processing

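The count of genes called (1) was 1 with RLE scaling, 0 with total-count scaling, which moved the median of all genes from 0.03 to 0.13, 82 with DESeq2 (55 higher and 27 lower), 232 without a filter on low counts (155 and 77 of 27704 tested), 3 with the mitochondrial percent as a covariate, and 0 with limma on log2(TPM + 1), on log2(TPM + 0.1) or on TPM, with the replicate block, and without both isotype 2 and anti-IL-1R1 2. Leaving out each library gave 0 to 13 calls, with 13 without isotype 1, 3 without Combo 1, and 1 without anti-IL-1R1 1, which was Pfkfb3 and not Ddit4. Where a library left out gave 0 calls, 699 to 1545 genes had an unadjusted p under 0.05, and 984 to 1927 in the other analyses with 0. The cause was not tested. Among the genes in the text signs turned for Jchain (3.14 TPM in limma on TPM), Il1rn (-0.23 with the mitochondrial covariate, and -0.0927 to 1.24 without single libraries) and Cd40 (-0.26, -0.63 and -0.33 in limma on log2(TPM + 1), log2(TPM + 0.1) and TPM, -0.0949 with the replicate block, -1.55 with the covariate, and -1.12 to 0.69 without single libraries). As a set, same-numbered libraries of different groups were not more alike. After group means were removed, 18 same-numbered pairs had a median correlation of -0.03 (-0.39 to 0.41) and 36 others 0.03 (-0.44 to 0.36). Whether equal numbers mark a shared animal or day was not tested, and these medians cannot decide it.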

Other observations

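The gene lists not described above had these median interactions, each with 0 members called by edgeR. Dendritic cell genes had a median of 0.60 (10 of 12 positive), urea cycle genes 0.46 (5 of 7), erythrocyte genes 0.20 (7 of 9), cell cycle genes 0.15 (16 of 25) and heat shock chaperones 0.07 (8 of 15). Sex-biased liver genes had a median of -0.80 (11 of 14 negative), bile duct and carcinoma epithelium genes -0.52 (12 of 16 negative), the 2 tested genes of the exocrine pancreas -0.63 and the 4 sex-linked genes -0.22. At an unadjusted p under 0.05 these lists held 2, 1, 0, 2, 1, 3, 4, 0 and 0 genes in the same order, and DESeq2 called 1 of the sex-biased genes and 0 of the others. Leaving out single libraries moved the median of dendritic cell genes to 0.06 (without isotype 3) and 0.16 (without anti-IL-1R1 1). That of urea cycle genes was 0.26 without isotype 2, that of erythrocyte genes ran from -0.71 (without isotype 3) to 0.44 (without agoCD40 2), that of cell cycle genes was 0.69 without agoCD40 3, 0.01 without Combo 1, -0.0047 without isotype 3 and -0.0058 with the mitochondrial covariate, and that of heat shock chaperones ran from -0.07 (without isotype 1) to 0.14 (without isotype 2). Sex-biased genes had -0.49 without Combo 1 and -1.05 without Combo 3, bile duct genes -0.34 and exocrine genes -0.38 without anti-IL-1R1 2, and sex-linked genes -0.07 without isotype 3 and -0.36 without anti-IL-1R1 1. Ighg2c, the heavy chain of IgG2c, had 9 counts in isotype, 572 in agoCD40, 1 in anti-IL-1R1 and 1226 in Combo, summed over 3 libraries. The Combo sum was the highest, but its libraries (19.6, 20.6 and 10.4 CPM) overlapped those of agoCD40 (4.88, 3.58 and 13.3). In isotype they measured 0, 0.402 and 0.0371 CPM. The interaction was 4.13 ± 1.75 (edgeR adjusted p = 0.643), and without isotype 2 it was 1.71.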
